A study of Mus musculus with 10 samples.

Results

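The genes described here are the heat shock protein and DnaJ chaperone genes of the mouse right ventricle, followed across trained and untrained mice with or without a full dose of plakoglobin. They were taken by name: every probe set whose gene symbol in the array annotation starts with Hspa, Hspb, Hspd, Hspe, Hsph, Hsp90 or Dnaj. The rule found 124 of the 22690 probe sets on the array, which read 61 of the 12394 genes named there, and it used no measured value. A further 2 names sit on 2 of these probe sets at once, Dnajc19 and its pseudogene Dnajc19-ps, so those probe sets name no gene. Of the 124 probe sets, 95 reading 52 genes were bright enough to test. The other 29 lay below the brightness filter, among them the only probe sets of Hspa12b, Hspa1a, Hspa1l, Dnajb13, Dnajb3, Dnajb7, Dnajc17, Dnajc24 and Dnajc5b.

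Chaperones bind unfolded stretches of other proteins and keep them from clumping while they fold, move or are handed to the proteasome. Hsp70 proteins do this in cycles of ATP hydrolysis that DnaJ proteins (also called Hsp40) start by delivering a client, Hsp110 proteins such as Hsph1 reset the cycle by nucleotide exchange, and Hsp90 finishes the folding of kinases and steroid receptors. Small heat shock proteins hold unfolded clients without ATP, and in heart muscle several of them sit on the sarcomere and the cytoskeleton. Each compartment has its own set: Hspa5 (BiP) and Hsp90b1 (Grp94) work in the lumen of the endoplasmic reticulum, and Hspa9 (mortalin) with the Hspd1 and Hspe1 chamber (Hsp60 and Hsp10) in mitochondria.

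Total RNA of the right ventricle was measured on 10 arrays, 1 mouse each, all of strain 129SV. The trained plakoglobin (+/-) group held 4 mice and the trained wt group 4, with 2 males and 2 females of 6 months in each. There was 1 untrained plakoglobin (+/-) and 1 untrained wt mouse, both females of 10 months. Plakoglobin (Jup) links the desmosome to the cytoskeleton, and the (+/-) label stands for 1 intact allele, in place of 2; the exon disrupted is not stated in the labels. The trained mice swam 6 times per week at a water temperature of 35 °C, in sessions lengthened from 5 to 90 min. The series states that mutant and wt mice were littermates. Age cannot be told apart from training, and because both untrained mice are female, the sex term makes a training difference that of the 4 trained against the 2 untrained females, while all 10 mice set its error.

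The values are MAS5 signals, a measure of hybridisation brightness scaled to a common level on every array. Signals of different probe sets are not comparable, so each is followed across mice only. Differences are on the log2 scale (1 is a doubling), with their standard error (SE), and are tested with limma. A probe set is past the threshold when its p adjusted over all 13576 tested probe sets (Benjamini-Hochberg) is under 0.05. A gene is given by its brightest probe set unless another is named. The array carries control probe sets at both ends of the GAPDH transcript, and their 3'/5' ratio, which climbs when RNA is broken or labelled short, lay at 2.98 in trained plakoglobin (+/-) mouse 1, 2.50 in trained wt mouse 1 and 17.8 in trained wt mouse 2, against 0.849 to 1.02 on the other 7 arrays. For actin the ratio was 2.65 in trained plakoglobin (+/-) mouse 1 and 3.05 in trained wt mouse 1, both males. In trained wt mouse 2 it was only 1.29, near the 0.932 to 1.24 of the other 7 arrays, so the 2 controls differ for this mouse. The ventricular markers (Myh6, Myl2, Myl3, Tnnt2, Tnni3, Actc1 and Ryr2) summed to signals of 1347860 to 1726570 in trained and 1676410 to 1869110 in untrained mice, so the markers of the labelled tissue were bright in every mouse. Jup itself read 1991.7, 3519.9, 2229.7 and 2362.8 in trained plakoglobin (+/-) mice and 2928.3, 3206.9, 3995.5 and 4322 in trained wt mice, a difference of -0.53 (SE 0.24; adjusted p = 1) with overlap. In the untrained pair the mouse labelled plakoglobin (+/-) was the higher, at 3156.9 against 2386.8 in the mouse labelled wt, opposite to the labels. The RNA of Jup therefore does not check the genotypes, which are given as labelled, and where its probe set lies relative to the disrupted part is not stated.

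Promoter sequence gives a view of the chaperones that the naming rule did not use. In RefSeq windows of 250 bases before to 50 bases after the annotated start (GRCm38.p6, 50 of the 61 genes, 64 windows), both strands were searched for 3 motifs. The heat shock element, bound by heat shock factors, was searched as GAANNTTC and as the longer GAANNTTCNNGAA, which always contains the shorter. The first was in 14 member windows (21.9%; 12 genes) against 7.86% of 32851 windows of all genes, and the second in 6 (9.38%; Dnajb6, Hspd1, Hspe1 and Hsph1) against 0.603%. These windows are not all separate promoters: a gene can have more than 1, and the element that Hspd1 shares with Hspe1 is counted for both. The endoplasmic reticulum stress element, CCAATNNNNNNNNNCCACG, was in 3 windows (4.69%), those of Hspa5, Hsp90b1 and Dnajc3, against 0.119% of all windows. Matches of 5 genes, picked by hand from those that held a motif, are printed on the gene's own strand with 20 bases on either side. Capitals mark the motif. Hspb8 and Hspa1b, followed mouse by mouse below, also held the short heat shock element and are not printed. The first 3 lines show the stress element upstream of Hspa5 (chr2:34772005-34772063, + strand), Hsp90b1 (chr10:86705513-86705676, - strand; a match on each strand) and Dnajc3 (chr14:118937807-118937865, + strand). The fourth shows a pair of short heat shock elements of Hspb1 (chr5:135887782-135887849, + strand), and the last the overlapping long elements in the promoter that Hspd1 shares with Hspe1, which is transcribed the other way (chr1:55088039-55088096, - strand).
Hspa5: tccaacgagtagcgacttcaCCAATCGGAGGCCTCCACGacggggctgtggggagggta
Hsp90b1: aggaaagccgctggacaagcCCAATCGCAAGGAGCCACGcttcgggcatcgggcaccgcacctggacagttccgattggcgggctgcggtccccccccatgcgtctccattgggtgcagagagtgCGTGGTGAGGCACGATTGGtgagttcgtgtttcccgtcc
Dnajc3: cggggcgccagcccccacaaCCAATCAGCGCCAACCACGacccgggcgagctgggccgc
Hspb1: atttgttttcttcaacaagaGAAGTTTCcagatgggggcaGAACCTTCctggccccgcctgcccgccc
Hspd1: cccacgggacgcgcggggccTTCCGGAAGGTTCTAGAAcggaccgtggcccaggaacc
A match is a run of letters and not a shown binding site. The window of Hspb7, whose signal differed most with training, held none of the 3 motifs.

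The chaperone RNAs of trained mice lay, in the main, close to those of untrained mice. Of the 95 member probe sets 1 was past the threshold, a probe set of Hspb7 that fell, where 0.626% of all tested probe sets passed and 0.354% passed with lower signals. The median difference over members was -0.03 and over all tested probe sets -0.00. An unadjusted p under 0.05 was reached by 5 members (2 of Hspb1 and 1 each of Hspb7, Hspb8 and Dnaja4), all with lower signals in trained mice, and by 8.68% of all tested probe sets. At 7 member probe sets the 8 trained mice were all under the untrained pair (7.37%, against 4.61% of all tested), and at 3 they were all over it (3.16%, against 4.63%). The leukocyte markers (Ptprc, Cd68, Adgre1, C1qa, Cd74 and Lyz2) summed to 16201.5 to 27689 in trained and 36141 to 40951 in untrained mice, and 1 of these 6, Cd74, fell past the threshold. Cd74 made a large part of this gap, at 2612.8 to 5424.1 in trained mice and 13025.6 and 14000.2 in untrained mice. Of the 6 markers 5 were lower in trained mice, while Cd68 differed by 0.05 (SE 0.27). The part of these markers in the chaperone differences was not tested, and in bulk tissue fewer cells of a type and less RNA per cell cannot be told apart.

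**Figure D1:**
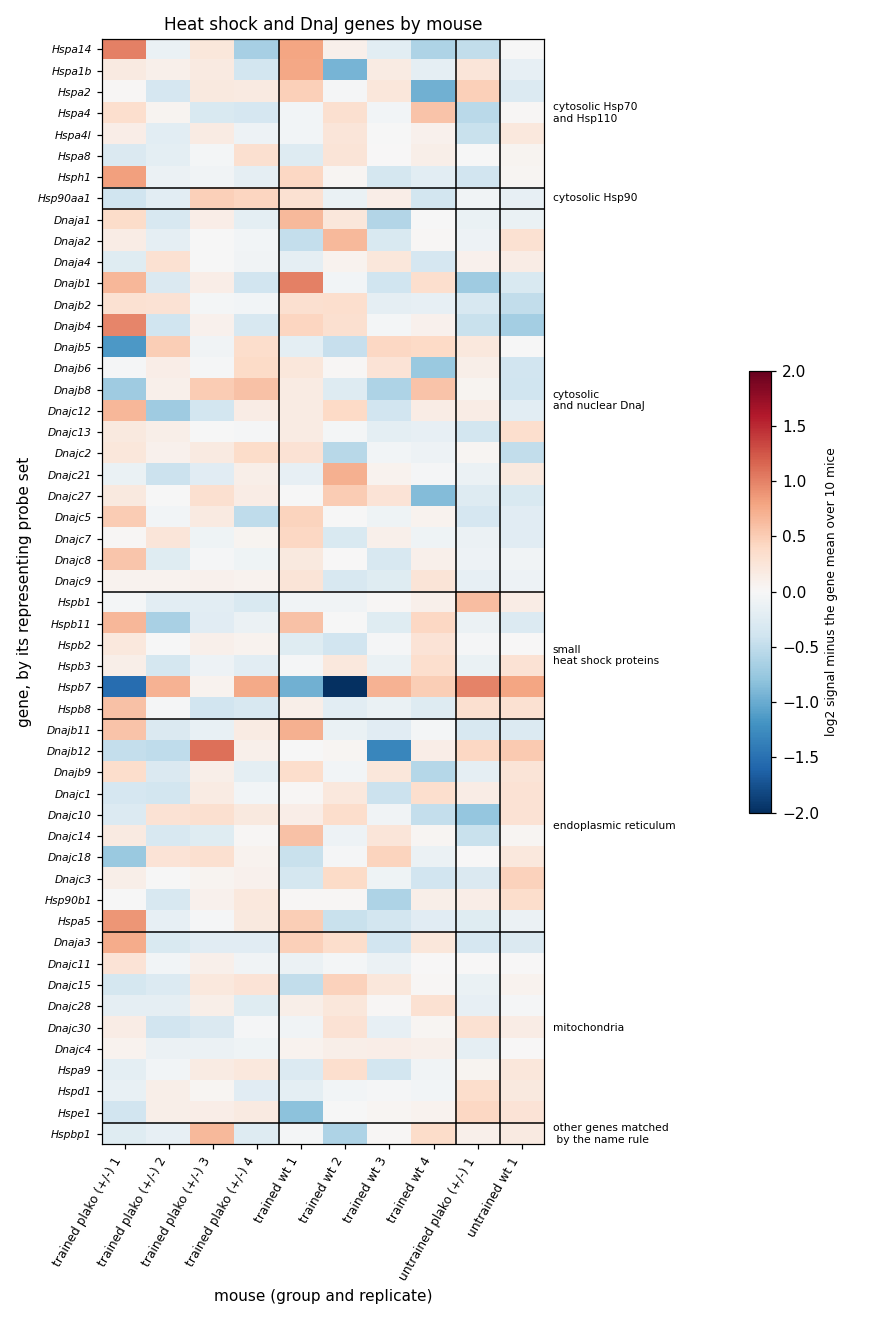
Log2 signal of each of the 52 tested member genes (rows, by role) in each of the 10 mice (columns), as the difference from the gene's own mean over all mice; red is above and blue below that mean. Hspb7 is darkest blue in trained wt mouse 2, and most other genes stay pale in every column.

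Small heat shock proteins held the difference that passed. Hspb7 (cvHsp), a small chaperone of heart and skeletal muscle that binds actin filaments and filamin, read by probe set 1434927_at, had signals of 10399.8, 20302, 13499.5 and 24049 in trained plakoglobin (+/-) mice and 14782, 6555, 19734 and 13126 in trained wt mice, against 90100.2 in the untrained plakoglobin (+/-) mouse and 110026 in the untrained wt mouse. Every trained mouse lay far below both untrained mice, and the groups did not overlap. The difference was -2.95 (SE 0.42; limma, adjusted p = 0.00994), which is 7.70-fold lower in trained mice. It was -2.64 without the 3 arrays of high GAPDH ratio (adjusted p = 0.000231), but with 1 untrained mouse left out it no longer passed: -2.62 without the wt mouse (adjusted p = 0.146) and -3.27 without the plakoglobin (+/-) mouse (adjusted p = 0.105). With no brightness filter the adjusted p was 0.0734.

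The further 2 probe sets of Hspb7 did not pass and showed a different pattern. The brightest, 1421290_at, had signals of 11201, 52095, 33547 and 54049 in trained plakoglobin (+/-) mice and 16412, 8075, 51728 and 45017 in trained wt mice, against 64171 in the untrained plakoglobin (+/-) mouse and 55416 in the untrained wt mouse. Here the trained mice again lay below both untrained mice, yet the 3 arrays of high GAPDH ratio were the 3 lowest and the other 5 came close to the untrained pair. Its difference was -1.07 (SE 0.76; adjusted p = 0.804) with every array in the fit and -0.47 without those 3 arrays. It was -0.44 without trained wt mouse 2 alone, the only female of the 3. The third probe set, 1421289_at, had 892.1, 89779.9, 50434 and 105908 in trained plakoglobin (+/-) mice and 4386, 874.1, 95714 and 82269.5 in trained wt mice. Its untrained signals were 76382 in the plakoglobin (+/-) and 56346 in the wt mouse. The same 3 arrays were the 3 lowest and the rest of the trained mice overlapped the untrained pair. The difference of -1.40 (SE 2.09; adjusted p = 0.925) became 0.21 without them and 0.30 without trained wt mouse 2 alone. The large fall of Hspb7 therefore rests on 1 of its 3 probe sets.

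Hspb1 (Hsp25 in mouse, Hsp27 in human), which stabilises actin filaments under stress, had signals of 65428, 57995, 57823 and 54033 in trained plakoglobin (+/-) mice and 63963, 63912, 68109 and 71694 in trained wt mice, against 103026 in the untrained plakoglobin (+/-) mouse and 73821 in the untrained wt mouse. Both untrained mice exceeded all trained mice, with trained wt mouse 4 just under the untrained wt mouse. The difference was -0.50 (SE 0.18; adjusted p = 0.422), and it depended on the untrained pair, at -0.17 without the plakoglobin (+/-) and -0.84 without the wt mouse. That of its probe set 1425964_x_at was -0.61 (SE 0.21; adjusted p = 0.376). Hspb8 (Hsp22), which acts with Bag3 in clearing damaged sarcomere proteins, had 34703, 22717, 17690.4 and 18453 in trained plakoglobin (+/-) mice and 24998, 20020.0, 21055 and 19235 in trained wt mice, against 28892 in the untrained plakoglobin (+/-) mouse and 28494 in the untrained wt mouse. Trained plakoglobin (+/-) mouse 1 was the highest of all 10 and the other 7 trained mice lay below both untrained mice, for a difference of -0.61 (SE 0.20; adjusted p = 0.37), or -0.39 with no sex term. Its probe set 1417014_at had -1.33 (SE 0.76; adjusted p = 0.723), and here the 3 arrays of high GAPDH ratio were the lowest, from 1828 to 5468, against 10568 to 17786 on the other trained arrays. Without trained wt mouse 2 alone the difference was -0.64.

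The remaining genes of the family differed less. Hspb2, a binding partner of myotonic dystrophy protein kinase, differed by 0.02 (SE 0.21) and Hspb3, which pairs with it in muscle, by -0.02 (SE 0.22). Hspb11, which is named as a small heat shock protein but is a subunit of the intraflagellar transport machinery (Ift25), differed by 0.21 (SE 0.37). Over the 11 tested probe sets of these genes 9 were lower in trained mice, 1 past the threshold, with a median of -0.61 against -0.00 over all tested probe sets. By gene, 4 of 6 were lower and the median was -0.26, or -0.29 with all probe sets of a gene averaged. Cryab (alphaB-crystallin), the most abundant small heat shock protein of the heart, whose name lies outside the rule, had -0.63 (SE 0.24; adjusted p = 0.446).

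**Figure D2:**
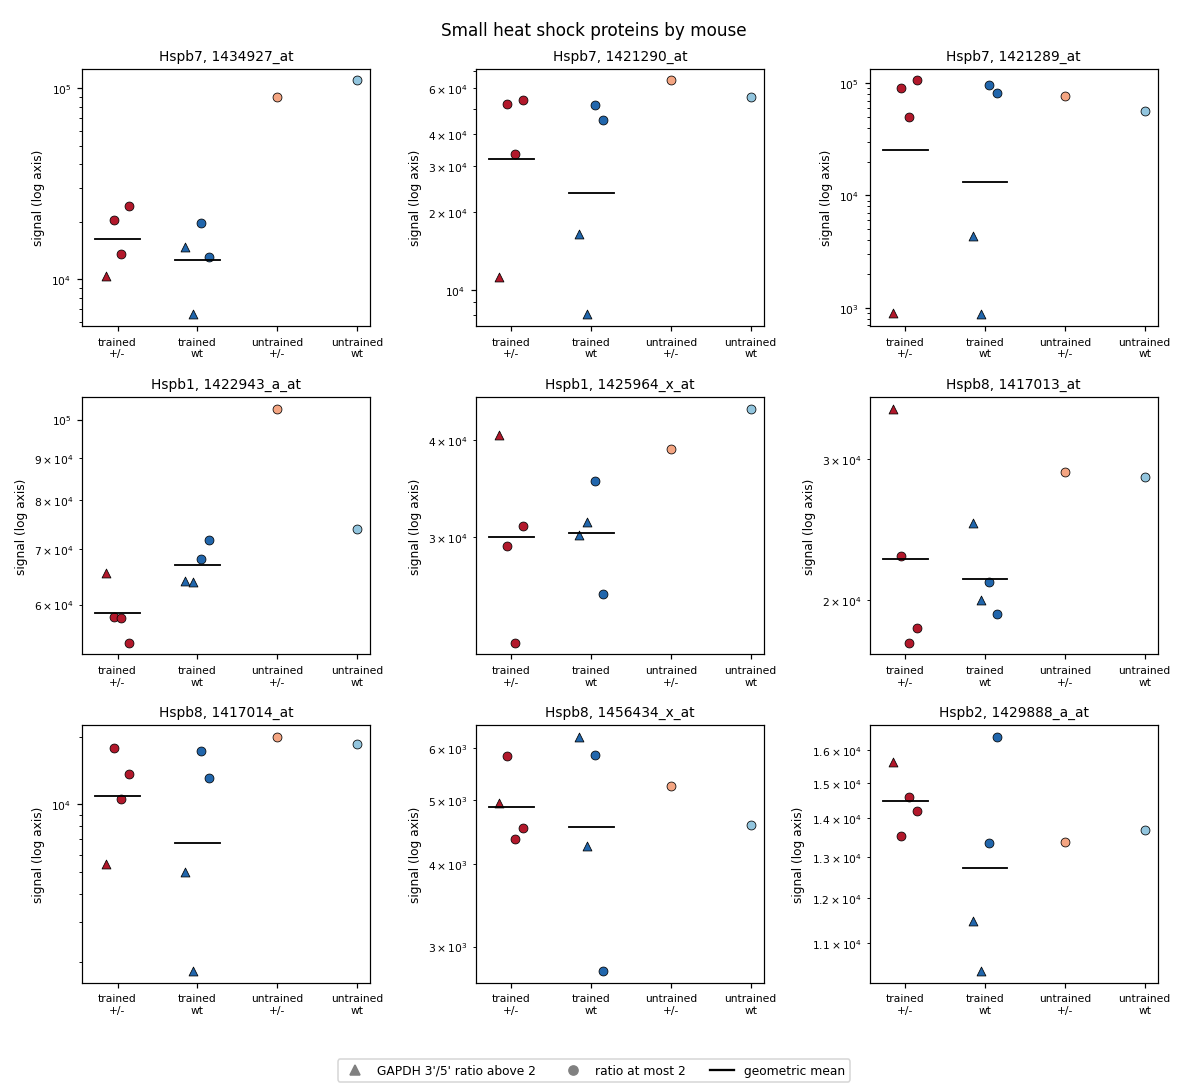
Signal on a log axis for 9 probe sets of small heat shock protein genes; each point is a mouse, bars are geometric means of the trained groups, and triangles mark the 3 trained arrays of high GAPDH ratio. Trained mice lie far below the untrained pair at the first Hspb7 probe set, while at the other Hspb7 probe sets and at 1417014_at of Hspb8 the triangles are the lowest points.

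Cytosolic Hsp70, Hsp110 and Hsp90 showed no change with training that passed the test. Hspa8 (Hsc70), the constitutive Hsp70 of every cell, had signals of 57771, 61519.5, 68299 and 88178 in trained plakoglobin (+/-) mice and 58775, 84007, 70801 and 76401 in trained wt mice, against 70023 in the untrained plakoglobin (+/-) mouse and 73276 in the untrained wt mouse. Trained and untrained mice overlapped, with a difference of 0.14 (SE 0.16; adjusted p = 0.897). Its further probe sets differed by 0.02 (SE 0.23), -0.02 (SE 0.495) and -0.08 (SE 0.37). The heat-inducible Hsp70 gene Hspa1b had 960.1, 903.6, 957.1 and 658.6 in trained plakoglobin (+/-) mice and 1442, 442.6, 948.1 and 750.1 in trained wt mice, against 1005 in the untrained plakoglobin (+/-) mouse and 759.1 in the untrained wt mouse. The untrained pair sat inside the range of the trained mice, and the difference was -0.37 (SE 0.42; adjusted p = 0.894). Its mean signals, with no sex term, were 882.8 in trained and 882.1 in untrained mice. Further probe sets of Hspa1b lay below the filter and were not tested. Their mean signals were higher in trained mice, 598.6 against 348 in untrained mice at 1427127_x_at, and 372 against 281 at 1427126_at. At both, trained and untrained mice overlapped. Its near-identical copy Hspa1a, below the filter, read 90.0 to 999.6 over the 10 mice, and both untrained mice lay under the floor of 104; cross-hybridisation between the copies was not tested. Hspa4 (Apg-2), an Hsp110-type exchange factor, had 5960.2, 4929, 3829 and 3749 in trained plakoglobin (+/-) mice and 4566, 5894, 4585 and 7053 in trained wt mice, against 3247 in the untrained plakoglobin (+/-) mouse and 4811 in the untrained wt mouse. The untrained wt mouse lay inside the trained range and the untrained plakoglobin (+/-) mouse under it, for a difference of 0.32 (SE 0.27; adjusted p = 0.839), but its further probe sets had -0.32 (SE 0.72) and -0.04 (SE 0.44). Of the 14 tested probe sets of this class 7 were lower, with a median of 0.00. Hsp90aa1, the stress-inducible cytosolic Hsp90, had 10087, 11536, 18614 and 18050.2 in trained plakoglobin (+/-) mice and 16505, 12119.5, 14559 and 10356 in trained wt mice, against 12762 in the untrained plakoglobin (+/-) mouse and 11889 in the untrained wt mouse. The untrained mice lay within the trained range (0.22, SE 0.28; adjusted p = 0.908), and the further probe sets differed by 0.04 (SE 0.56) and -0.18 (SE 0.43).

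The cytosolic and nuclear DnaJ genes leaned the other way without passing. Of 18 tested genes 15 had higher signals in trained mice, with a median of 0.14 against 0.00 over all 8365 tested genes. By probe set the lean was smaller: 18 of 31 were higher and the median was 0.07 (-0.01 with no brightness filter). Dnajb4, a DnaJ of heart and skeletal muscle that serves Hsp70, had 32849, 12636, 17689.9 and 13448 in trained plakoglobin (+/-) mice and 22491, 20990.1, 16230.3 and 17759.7 in trained wt mice, against 12282 in the untrained plakoglobin (+/-) mouse and 10406 in the untrained wt mouse. Both untrained mice were below all trained mice, and the highest were trained plakoglobin (+/-) mouse 1 and trained wt mice 1 and 2, the arrays of high GAPDH ratio. The difference was 0.61 (SE 0.33; adjusted p = 0.698), or 0.54 without those arrays. Trained plakoglobin (+/-) mouse 1 and trained wt mouse 1 are males, which the sex term keeps out of this difference. Leaving them out could hardly change it. A further probe set of Dnajb4 overlapped and differed by 0.21 (SE 0.42).

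Dnajb2, which carries ubiquitin-interacting motifs, had 7641, 7541, 5999 and 5954 in trained plakoglobin (+/-) mice and 7752, 7821, 5445 and 5506 in trained wt mice, against 4955 in the untrained plakoglobin (+/-) mouse and 4389 in the untrained wt mouse. All trained mice were above the untrained pair (0.42, SE 0.23; adjusted p = 0.675), with the 3 arrays of high GAPDH ratio above the other trained arrays. A further probe set of Dnaja2, a general DnaJ of the cytosol, was the third without overlap upward (0.29, SE 0.31), while the brightest overlapped and differed by 0.06 (SE 0.26). Dnajb1, the classic heat-induced partner of Hsp70, had 5789, 2994, 4029 and 2806 in trained plakoglobin (+/-) mice and 7373, 3527, 2791 and 4628 in trained wt mice, against 2243 in the untrained plakoglobin (+/-) mouse and 2971 in the untrained wt mouse. The ranges overlapped at a difference of 0.51 (SE 0.38; adjusted p = 0.813), and its other probe set gave -0.22 (SE 0.46). Dnajb8, known as an inhibitor of aggregation from testis and cultured cells, had 641.6, 1124, 1487 and 1581 in trained plakoglobin (+/-) mice and 1178, 879.1, 683.1 and 1565 in trained wt mice, against 1087 in the untrained plakoglobin (+/-) mouse and 796.6 in the untrained wt mouse. The untrained pair lay inside the trained range, with a difference of 0.53 (SE 0.39; adjusted p = 0.814). Dnajc8, linked to splicing, had 28233, 16254, 18911 and 18120.2 in trained plakoglobin (+/-) mice and 21899, 19267, 15324 and 20531 in trained wt mice, against 17818 in the untrained plakoglobin (+/-) mouse and 18334 in the untrained wt mouse. Trained plakoglobin (+/-) mouse 1 was the highest and the rest overlapped (0.09, SE 0.24; adjusted p = 0.968). In the opposite direction Dnaja4 differed by -0.59 at probe set 1434196_at (SE 0.24; adjusted p = 0.484), where both untrained mice were the highest, by -0.21 (SE 0.22) at its brightest probe set and by -0.39 (SE 0.42) at another.

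In the endoplasmic reticulum 0 of 18 probe sets passed with training, 13 were lower and the median was -0.09 (-0.21 with no sex term, and from -0.29 without the untrained plakoglobin (+/-) mouse to 0.02 without the untrained wt mouse). Hspa5, the lumenal Hsp70, which also keeps the stress sensors silent until clients draw it away, had 53958, 25991, 28774 and 33412 in trained plakoglobin (+/-) mice and 41124, 21386, 22606 and 24841 in trained wt mice, against 24553 in the untrained plakoglobin (+/-) mouse and 26798 in the untrained wt mouse. The untrained pair lay inside the trained range, with a difference of 0.06 (SE 0.31), and at probe set 1427464_s_at the difference was -0.06 (SE 0.24). Its lumenal partner Hsp90b1 differed by -0.13 (SE 0.21), and Dnajc3 (p58IPK), which restrains the stress kinase PERK and aids Hspa5, by -0.06 (SE 0.29). Those are the genes whose promoters hold the stress element printed above. Dnajb11 (ERdj3), a co-chaperone of Hspa5 that binds clients, had 3656, 2013, 2215 and 2755 in trained plakoglobin (+/-) mice and 4016, 2252, 2105 and 2398 in trained wt mice, against 1978 in the untrained plakoglobin (+/-) mouse and 2042 in the untrained wt mouse. The highest were trained plakoglobin (+/-) mouse 1 and trained wt mouse 1, and the difference was 0.25 (SE 0.31; adjusted p = 0.904). Dnajc10 (ERdj5), a disulfide reductase, had 2833, 4151, 4273 and 3906 in trained plakoglobin (+/-) mice and 3727, 4376, 3241 and 2464 in trained wt mice, against 2002 in the untrained plakoglobin (+/-) mouse and 4172 in the untrained wt mouse. The untrained plakoglobin (+/-) mouse was the lowest of all and the untrained wt mouse lay inside the trained range. The differences were 0.34 (SE 0.34), 0.07 (SE 0.24) and -1.13 (SE 0.69) at its 3 probe sets, so no direction can be given.

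**Figure D3:**
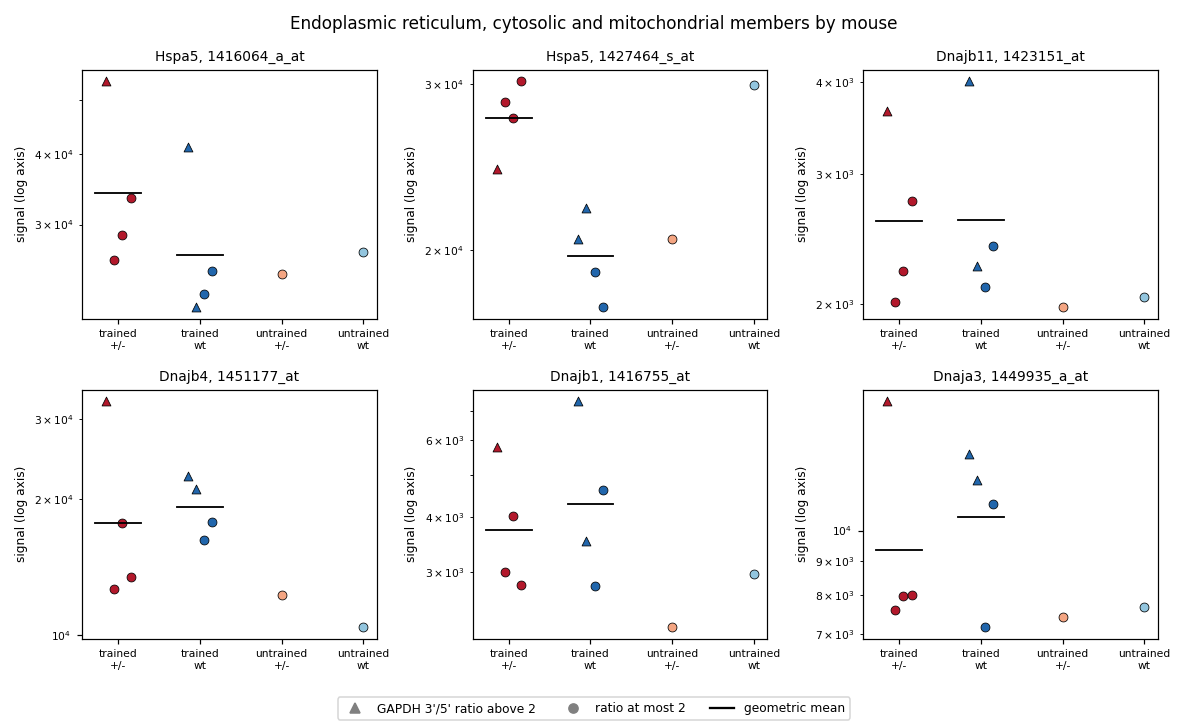
Signal on a log axis for Hspa5 (both probe sets), Dnajb11, Dnajb4, Dnajb1 and Dnaja3; each point is a mouse, bars are geometric means of the trained groups and triangles mark arrays of high GAPDH ratio. At Hspa5 probe set 1427464_s_at every trained plakoglobin (+/-) mouse lies above every trained wt mouse, and in the other panels a triangle is the highest point.

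Mitochondrial chaperones also did not pass. Hspd1, which forms the folding chamber of the matrix, had 30366, 36493, 34594 and 28689 in trained plakoglobin (+/-) mice and 29374, 32404, 33014 and 32465 in trained wt mice, against 43007 in the untrained plakoglobin (+/-) mouse and 38740.1 in the untrained wt mouse. The untrained pair was above all trained mice, with a difference of -0.35 (SE 0.16; adjusted p = 0.59). Its lid Hspe1, which shares the promoter printed above, had 14631, 20679, 20909 and 21566 in trained plakoglobin (+/-) mice and 10775, 18939.8, 19651 and 19934 in trained wt mice, against 25558 in the untrained plakoglobin (+/-) mouse and 22964 in the untrained wt mouse. The trained mice again lay below both untrained mice, trained plakoglobin (+/-) mouse 1 and trained wt mouse 1 lowest, with a difference of -0.25 (SE 0.24; adjusted p = 0.864). A further Hspe1 probe set overlapped and differed by -0.23 (SE 0.31). Hspa9, the matrix Hsp70 that pulls proteins through the import channel, differed by 0.02 (SE 0.18), 0.29 (SE 0.26) and -0.76 (SE 1.73) at its 3 probe sets. Dnaja3 (Tid1), the DnaJ of Hspa9, had 15645, 7608, 7980.4 and 7993 in trained plakoglobin (+/-) mice and 13009.5, 11907, 7154 and 10956 in trained wt mice, against 7418 in the untrained plakoglobin (+/-) mouse and 7669 in the untrained wt mouse. Trained plakoglobin (+/-) mouse 1 and trained wt mouse 1 were the highest, and the groups overlapped (0.34, SE 0.32; adjusted p = 0.868). Of 15 mitochondrial probe sets 8 were lower, with a median of -0.01 (-0.18 with no sex term). Hspbp1, an exchange factor that restrains Hsp70 and matches the rule only by its name, had 2306, 2428, 4284 and 2289.8 in trained plakoglobin (+/-) mice and 2666, 1788, 2768 and 3527 in trained wt mice, against 2931 in the untrained plakoglobin (+/-) mouse and 3085 in the untrained wt mouse. The untrained pair lay inside the trained range, with a difference of -0.10 (SE 0.33; adjusted p = 0.974). It was 0.14 without the 3 arrays of high GAPDH ratio, and also without trained wt mouse 2 alone.

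**Figure D4:**
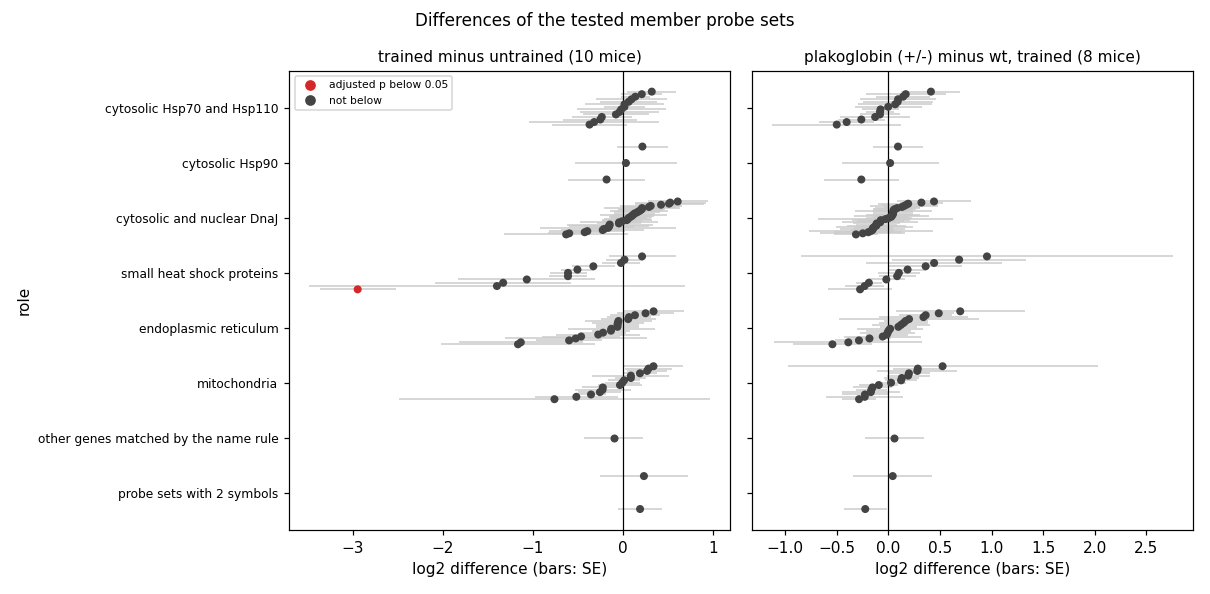
Log2 difference of each of the 95 tested member probe sets (points; bars are 1 SE) by role, trained minus untrained on the left and trained plakoglobin (+/-) minus trained wt on the right. The lone red point, a probe set of Hspb7 at -2.95, is the member past the threshold, and the other members lie on either side of 0 in both panels.

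Between the genotypes no chaperone passed, and no probe set of the array did: 0 of 13576 (0%) had an adjusted p under 0.05 in trained plakoglobin (+/-) against trained wt mice. An unadjusted p under 0.05 was reached by 2.01% of all tested probe sets and by 1 of 95 members, Hspa5 at probe set 1427464_s_at. Its signals were 24370.4, 28749.5, 27587 and 30228 in trained plakoglobin (+/-) mice, against 20566, 22184, 18970.2 and 17391 in trained wt mice. Every plakoglobin (+/-) mouse lay above every wt mouse, with a difference of 0.49 (SE 0.15; unadjusted p = 0.00828, adjusted p = 1). Means were 27734 ± 2489 in plakoglobin (+/-) and 19778 ± 2063 in wt mice (SD, n = 4 each). It was the only member without overlap upward (1.05% of members, against 0.803% of all tested). The brightest probe set of Hspa5 pointed the same way at 0.36 (SE 0.26) but overlapped, with 53958, 25991, 28774 and 33412 in trained plakoglobin (+/-) mice, against 41124, 21386, 22606 and 24841 in trained wt mice.

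By brightest probe set the other genes of the endoplasmic reticulum differed less than Hspa5. Hsp90b1 differed by 0.10 (SE 0.18), Dnajc3 by 0.17 (SE 0.21), Dnajb11 by -0.01 (SE 0.27) and Dnajb9, which is induced with Hspa5 under stress, by 0.00 (SE 0.22). Dnajc10 differed by 0.15 (SE 0.23) at its brightest probe set, but by 0.70 (SE 0.63) at another, with a larger error. Dnajc4, which is placed in mitochondria, was the only member without overlap downward (1.05%, against 0.796%), at -0.16 (SE 0.15) and signals of 6165, 5454, 5468 and 5576 in trained plakoglobin (+/-) mice, against 6198, 6395, 6449 and 6318 in trained wt mice. By brightest probe set, the genes of largest genotype difference in the other roles were Hspa4 at -0.26 (SE 0.23), Hsp90aa1 at 0.09 (SE 0.24), Hspb7 at 0.44 (SE 0.66), Dnajc2 and Dnajc28. Dnajc2, a ribosome-bound DnaJ, had 3161, 2867, 3053 and 3488 in trained plakoglobin (+/-) mice and 3279, 1836, 2608 and 2524 in trained wt mice, against 2777 in the untrained plakoglobin (+/-) mouse and 1926 in the untrained wt mouse. The trained groups overlapped at 0.32 (SE 0.21), and its further probe set had -0.25 (SE 0.41). Dnajc28 had 3832, 3837, 4708 and 3680.4 in trained plakoglobin (+/-) mice and 4685, 5081, 4391 and 5339.6 in trained wt mice, against 3881 in the untrained plakoglobin (+/-) mouse and 4286 in the untrained wt mouse. The trained groups overlapped through trained plakoglobin (+/-) mouse 3 at -0.28 (SE 0.17), and its further probe set had 0.28 (SE 0.39). Hspb7 turned to -0.04 without the 3 arrays of high GAPDH ratio. Over all members the median was 0.03, with 52 of 95 higher in plakoglobin (+/-) mice, against a median of 0.01 over all tested probe sets.

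Whether training acted differently in the genotypes was asked with the genotype by training term, in which each untrained group is a single mouse assumed to vary like the rest. Of all tested probe sets 0% passed and 3.2% had an unadjusted p under 0.05; among members 0 passed and 3 had such a p. These were Hspa5 at 1427464_s_at (1.03, SE 0.33), Dnajc10 (1.21, SE 0.52) and Hspb1 (-0.67, SE 0.28), each with an adjusted p of 1. For Hspa5 the untrained plakoglobin (+/-) mouse read 20557 and the untrained wt mouse 29934, the opposite order to the trained mice. Dnajc10 read 2002 in the untrained plakoglobin (+/-) and 4172 in the untrained wt mouse, while its trained groups overlapped. With 1 mouse a group these untrained values have no replicate check, and the Jup signal of this pair, higher in the mouse labelled plakoglobin (+/-), runs against its labels. Across members the untrained plakoglobin (+/-) mouse differed from the untrained wt mouse by a median of -0.05.

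Males and females were compared over the 8 trained mice. No member passed, where 0.0516% of all tested probe sets did. An unadjusted p under 0.05 was reached by 7 members and by 8.82% of all tested; those named here were chosen after their values were seen. Lower in males were Hsp90aa1 at 1426645_at (-1.0, SE 0.36), Hspe1 at 1422579_at (-0.70, SE 0.24) and Hspa9 at 1418504_at (-0.38, SE 0.15). Hspa8 was also lower in males at its brightest probe set, 1420623_x_at (-0.35, SE 0.14), with overlap between the sexes. Its further probe sets had both signs, at -0.13 (SE 0.19), 0.665 (SE 0.39) and 0.02 (SE 0.27). Higher in males was Hspb8, at 1417013_at (0.43, SE 0.18) and at 1456434_x_at (0.55, SE 0.21), and at both probe sets all 4 males lay above all 4 females. Together they made 2 member probe sets without overlap upward (2.11%, against 2.98% of all tested), and 1 lay wholly downward, Dnajb12 (1.05%, against 2.91%). Of these differences Hsp90aa1 came to -0.32 and Hspe1 to -0.27 on the 5 trained arrays of low GAPDH ratio, which leave out 2 males and 1 female. The summed signal of 11 immediate early genes was also higher in males, from 84580 to 321266, than in trained females, from 22627 to 25396; its part in the chaperone values was not tested.

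Many of the chaperone signals differed with the GAPDH ratio of the array. Of the 3 arrays of high ratio 2 are males, with the highest immediate early signals of all mice. Array quality therefore cannot be told apart from sex or from these signals here. Between the 3 trained arrays of high GAPDH ratio and the other 5, 13 member probe sets were lower by more than 1 (13.7%, against 6.4% of all tested) and 0 were higher by more than 1 (against 1.05%). Without overlap, 16 were lower (16.8%, against 7.98%) and 8 were higher (8.42%, against 5.79%). The split ran within genes. Of 28 genes with several tested probe sets, 69 probe sets in all, the probe sets of 14 (50%) differed by more than 1 in this contrast, against 27.8% of 2794 such genes on the whole array. For 14 (50%) the training differences had both signs, a share near the 49.5% of all such genes. Hspa9 spanned -5.01 to 0.50 and Hspb7 -5.77 to -0.82, Hspb8 -1.95 to 0.39, Hsp90b1 -2.16 to 0.12 and Dnajc5, the cysteine-string protein of secretory vesicles, -1.87 to 0.39. Probe set 1431274_a_at of Hspa9 read 111.5, 124.5 and 500.1 on the 3 arrays, in trained plakoglobin (+/-) mouse 1 and trained wt mice 1 and 2, and 4216 to 8176.5 on the other 7.

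**Figure D5:**
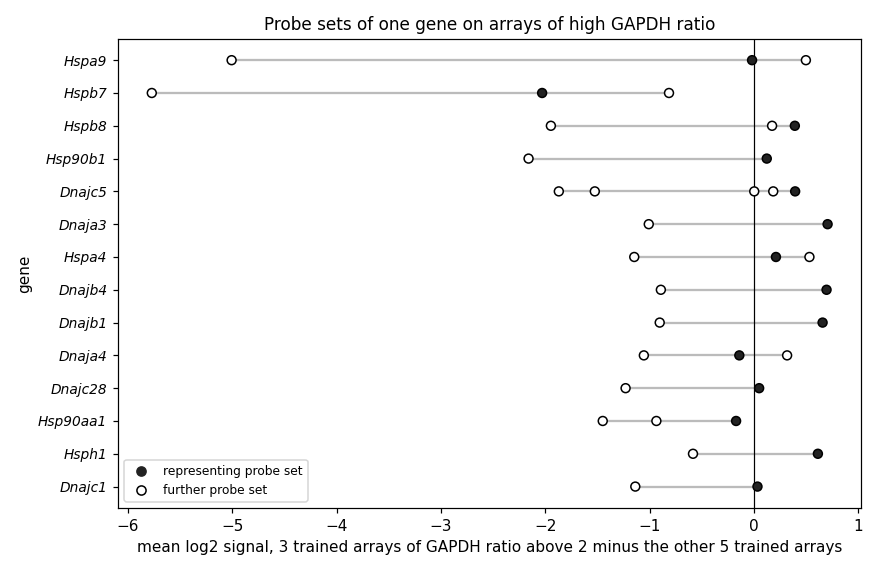
Mean log2 signal of the 3 trained arrays of GAPDH ratio above 2 minus that of the other 5 trained arrays, for the 14 genes whose probe sets differ by more than 1 in it; filled points are the representing and open points further probe sets. Within Hspa9 and Hspb7 the probe sets span the widest ranges, -5.01 to 0.50 and -5.77 to -0.82.

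The 2 male arrays of high actin ratio, trained plakoglobin (+/-) mouse 1 and trained wt mouse 1, stood apart in another way. They were the 2 highest of all 10 at 12 of 52 member genes (23.1%, against 11.5% of 8365 tested genes): Hspa14, Hsph1, Dnaja1, Dnajb1, Dnajb4, Dnajc5, Dnajc8, Dnajb9, Dnajb11, Hspa5, Dnaja3 and Hspb11. They were the 2 lowest at 4 (7.69%, against 8.01%), namely Hspa8, Dnajc18, Dnajc15 and Hspe1. Over the other trained mice the pair was higher by 1.11 at Hspa14, 0.94 at Dnajb1, 0.86 at Hspa5, 0.77 at Hsph1 and 0.74 at Dnajb4, each the difference of mean log2 signals. Further probe sets of the same genes did not follow. The difference was -0.65 at Dnajb1, -0.08 at Hspa5, -0.71 at Hsph1 and -1.42 at Dnajb4, and the pair was the 2 lowest at further probe sets of Hsph1, Dnajb4, Dnaja3 and Dnajc5. Counted by probe set, the pair was the 2 highest at 14 of 95 (14.7%, against 10.4% of all tested) and the 2 lowest at 17 (17.9%, against 11.3%), so no direction can be given. The summed immediate early signal was also highest on this pair, at 321266 and 238198, against at most 103024 in the other 8 mice. The part of either in the other was not tested.

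The wider chaperone machinery did not pass with training either. Over all 8365 tested genes 4171 were lower in trained mice, with a median of 0.00. Of the co-chaperones of Hsp70 and Hsp90, 12 of 14 tested genes were lower in trained mice, with a median of -0.22 and 0 past the threshold in either direction. Among them were Fkbp8 (-1.18, SE 0.58), a mitochondrial immunophilin, Fkbp4 (-0.70, SE 0.22), a partner of Hsp90 at steroid receptors, and Bag5 (-0.53, SE 0.32), an Hsp70 exchange factor. The opposite sign was seen for Fkbp5 (0.90, SE 0.29), the glucocorticoid-induced counterpart of Fkbp4. Of the heat shock factors and targets outside the family 5 of 6 were lower, 0 past the threshold, with Serpinh1 (Hsp47), the collagen chaperone, at -0.49 (SE 0.20) and Bag3, the partner of Hspb8, at -0.27 (SE 0.21).

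In the endoplasmic reticulum 13 of 21 further folding and stress genes were lower, with a median of -0.03 and 0 past the threshold. Among the lower were the disulfide isomerases Pdia4 (-1.04, SE 0.34) and Pdia3 (-0.95, SE 0.43). The transcription factors of the stress response differed by -0.35 (SE 0.27) for Xbp1, 0.38 (SE 0.26) for Atf4 and -0.03 (SE 0.29) for Atf6. Of 11 mitochondrial folding and protease genes 6 were lower and 0 passed, with Afg3l2, a subunit of the inner membrane protease, at 0.93 (SE 0.32) and Trap1, the Hsp90 of the matrix, at 0.31 (SE 0.16). Of 12 chaperonin TRiC and prefoldin genes 7 were higher and 0 passed, Cct6a at 0.47 (SE 0.19) and Cct8 at -0.52 (SE 0.29). By genotype 0 genes passed in any of these lists. Of the 21 genes of the endoplasmic reticulum list 14 were higher in trained plakoglobin (+/-) mice and 7 lower, with a median of 0.08. The higher share was 66.7%, against 51.2% of all tested genes. The largest difference in that list was downward, -0.71 (SE 0.40) for Sil1. Among the higher were Ern1 by 0.635, Manf, a secreted stress protein, by 0.49 and Xbp1 by 0.42.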

How the data were processed

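Right ventricular RNA of 10 mice was hybridised to Affymetrix arrays. The deposited values are linear intensity signals, which the authors made with MAS5 5.0, per the submitters' processing notes; detection calls and scanner files were not used here. The mean left after trimming 2% of values at each end lay between 2501.31 and 2501.55 on every array, and the number of arrays limits the precision.

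The array annotation gave 1 symbol to 20393 probe sets and several to 691, and 1606 were not listed. Values under 104, the 10th percentile of all signals, were set to 104 before the log2 step. After 64 control probe sets were set aside, those with a mean not under the 40th percentile, 13576 in number, were tested together in limma 3.58.1 (lmFit, eBayes with trend; R 4.3.3), two-sided, with Benjamini-Hochberg adjustment. Training was fitted over 10 mice with genotype and sex terms, genotype and sex over the 8 trained mice in a shared fit, and the genotype by training term over 10 mice. The code was checked on simulated data. The labels name separate mice, and p-values measure the spread between them. Groups follow the labels, and replicate numbers are only names.

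Values per mouse are given for members past the threshold and, by role, for the brightest gene, the 2 of largest training and the 1 of largest genotype difference, with further probe sets where they differ. Other members were named after their values were seen. The members and gene lists were chosen with earlier results of these data known. Alternatives covered normalization, floor, filter, moderation, covariates, probe set summary, and arrays or mice left out; those without the 2 arrays of high actin ratio were chosen after seeing the data. Promoter windows and gene places are from RefSeq, GRCm38.p6.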

Additional observations from a re-analysis of the deposited data

Results flagged for a closer look

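In 50 groups of 4 trained mice at the named member probe sets, 6 held a mouse set apart from the other 3. The gap passed Dixon's 95% criterion, which chance meets in about 1 in 20 separate groups. These groups reuse the same 8 mice, and many of their probe sets were picked by their values. That rate therefore does not apply to them. Trained plakoglobin (+/-) mouse 1, an array of high GAPDH ratio, was high at Dnaja3 (15645 against 7608 to 7992.5; gap 0.932 of the range) and low at Hspb7 probe set 1421289_at (892.1 against 50434 to 105908; 0.845). Trained plakoglobin (+/-) mouse 3 was high at Hspbp1 (4284 against 2289.8 to 2428; 0.907) and at Dnajc28 (4707.5 against 3680.4 to 3837; 0.831). Trained plakoglobin (+/-) mouse 4 was low at Hspa1b (658.6 against 903.6 to 960.1; 0.839), and trained wt mouse 1 was low at Hspd1 (29374 against 32404 to 33014; 0.84). What sets these mice apart was not tested.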

How the results depend on the processing

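Of 845 alternative values of 39 named results, 822 kept direction and call, 3 lost the call (Hspb7 at 1434927_at, given above) and 20 turned; the cause was not tested except where fewer mice or genes enter. No paired analysis was possible because the labels tie no mouse to a litter or partner. The genotype by training term could not be fitted without an untrained mouse. For training, 85 probe sets passed; 226 did without the 3 arrays of high GAPDH ratio, 134 without the 2 of high actin ratio and 48 with all probe sets of a gene averaged, and 10 to 88 with each mouse left out in turn (10 without the untrained plakoglobin (+/-), 34 without the untrained wt mouse). The member past the threshold became 0 with no filter and with averaged probe sets (0 to 1 with a mouse left out). For sex, 7 probe sets passed; 13 did with quantile normalization, 15 with a floor at the 25th percentile, 2 with no filter, 11 with a filter at the 60th percentile, 1 with no trend, 13 with no genotype term, 16 without the GAPDH arrays, 15 with all 10 mice, 12 with averaged probe sets and 1 to 12 with a mouse left out. For genotype by training, 0 passed; 66 did with no filter, 1 with quantile normalization, 1 without the GAPDH arrays, 1 without the actin arrays and 0 to 1 with a mouse left out.

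Medians over members moved to 0.015 for training with the stricter filter (-0.104 to 0.023 with a mouse left out), to -0.034 for genotype with all 10 mice (-0.039 to 0.066) and to 0.054 for genotype by training without the GAPDH arrays (0.02 to 0.16); for sex they ranged from -0.067 to 0.013. For training, the small heat shock protein median was -0.46 with no covariate, -0.47 without the GAPDH arrays and -0.29 averaged (-0.64 to -0.44), that of the endoplasmic reticulum -0.21 with no covariate (-0.285 to 0.022) and that of mitochondria -0.18 with no covariate and -0.15 averaged. The DnaJ median was -0.006 with no filter and that of cytosolic Hsp70 ranged from -0.133 to 0.071. By genotype the small heat shock protein median was -0.10 without the GAPDH arrays. Named members that turned, none past the threshold, were Hspa8 (-0.035 with no covariate), Hspbp1 (0.14 for training and -0.18 for genotype), Hspb7 at 1421289_at (0.21) and for genotype at 1421290_at (-0.041), these 4 without the GAPDH arrays, and with averaged probe sets Hspa4 (-0.01), Dnajc10 (-0.24) and, for genotype, Hsp90aa1 (-0.05). With a mouse left out, training differences ranged from -0.18 to 0.30 for Hspa5, -0.26 to 0.95 for Dnajc10, -0.33 to 0.14 for Hspbp1 and -2.23 to 0.30 for Hspb7 at 1421289_at. Genotype differences ranged from -0.075 to 0.26 for Hsp90aa1, -0.19 to 0.20 for Hspbp1 and -0.19 to 1.03 for Hspb7 at 1421290_at. These values are limited by the 2 untrained mice.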
